A study of Mus musculus with 4 samples.

Results

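Axonemal dynein heavy chains are the motor subunits of the dynein arms, and their transcripts were examined in whole testes of mice with and without the transcription factor RFX2. Members were all genes whose symbol in the deposited files begins with Dnah or Dnahc followed by a number, which gave 10 of 22311 gene symbols, each with 1 row per sample. Of these, 5 build the outer arm (Dnahc5, Dnahc8, Dnahc9, Dnahc11 and Dnahc17) and 5 the inner arms (Dnahc1, Dnahc2, Dnahc6, Dnahc7b and Dnahc10). RNA sequencing was carried out on testes of 24-day-old mice, with 2 Rfx2 mutant and 2 control samples. The mutants lack exons 6 and 7 of Rfx2, the part for DNA binding, and carry in their place a selection cassette for neomycin under the phosphoglycerate kinase promoter; all descend from 1 embryonic stem cell clone. The allele is constitutive, so every cell of the mutant animals carries it. The GEO labels call the controls wild type and the strain DBA, whereas the study's text describes heterozygous controls and a mixed 129/s6 and C57BL/6 background; which holds for these libraries could not be settled, and a heterozygous control would also carry 1 mutated allele. The samples are named mutant 1, mutant 2, control 1 and control 2, by genotype and replicate number. The study calls the replicates of a genotype independent biological samples and speaks of 2 control mice. The p-values measure the spread between these samples. For its further work the study took mutants that grew normally, while some others were severely retarded in growth.

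The beating of a sperm tail or a motile cilium is driven by rows of dynein arms along the outer doublet microtubules, and each arm is built around heavy chains that hydrolyse ATP and walk along the neighbouring doublet. Outer arms pair a beta-type chain (Dnahc9, Dnahc11 or Dnahc17) with a gamma-type chain (Dnahc5 or Dnahc8) and set mainly the beat frequency. Inner arms include a two-headed form, dynein f, with Dnahc2 and Dnahc10, and several single-headed forms with Dnahc1, Dnahc6 or Dnahc7b, and shape the bend. Dnahc8 and Dnahc17 are the outer-arm chains typical of sperm, whereas Dnahc5, Dnahc9 and Dnahc11 are typical of airway and other motile cilia. RFX proteins bind a palindromic DNA motif, the X-box, in the promoters of many ciliary genes.

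The promoters of the inner-arm chains Dnahc10 and Dnahc6 are shown first, because these were the heavy chains whose transcripts fell in the mutants. The 250 bases before the annotated start site are written 5′ to 3′ on the strand of the gene, in the NCBIM37 (mm9) build that the files use. Capitals mark a run that matches the standard X-box with 1 mismatch, searched on both strands as a pair of 6-base arms with a gap of 0 to 3 bases. The Dnahc10 window is chr5:125205205-125205454 on the plus strand, and the Dnahc6 window is chr6:73171646-73171895 on the minus strand.
Dnahc10: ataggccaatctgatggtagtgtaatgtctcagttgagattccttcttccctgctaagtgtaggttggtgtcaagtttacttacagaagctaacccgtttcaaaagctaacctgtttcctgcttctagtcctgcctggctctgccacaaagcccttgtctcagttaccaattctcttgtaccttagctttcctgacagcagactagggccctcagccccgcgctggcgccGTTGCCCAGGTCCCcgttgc
Dnahc6: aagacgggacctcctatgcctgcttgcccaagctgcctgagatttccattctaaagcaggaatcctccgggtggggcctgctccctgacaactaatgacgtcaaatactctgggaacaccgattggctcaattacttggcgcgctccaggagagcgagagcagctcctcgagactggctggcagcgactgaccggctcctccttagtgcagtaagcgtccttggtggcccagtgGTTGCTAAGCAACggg

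In Dnahc10 the capitals cover positions -20 to -7 relative to the start site at 0, and a second run with 1 mismatch follows at positions -5 to 8. In Dnahc6 the capitals cover positions -16 to -4, a perfect inverted repeat apart from its middle base, so that both strands hold a match. The second run of Dnahc10 and the corresponding runs of heavy chains that did not pass the test are given with 8 bases on either side, so that they can be set beside these, with capitals marking the match as before. The Dnahc10 run is chr5:125205450-125205463, that of Dnahc7b is chr1:46123674-46123686 (positions 91 to 103), that of Dnahc2 is chr11:69362683-69362696 (positions -84 to -71) and that of Dnahc17 is chr11:117990679-117990692 (positions -159 to -146).
Dnahc10: aggtccccGTTGCTAGGGTCGCcgttgcca
Dnahc7b: gccagtttGTTGCTTAGCAACgaatcgac
Dnahc2: ggagggggGTGGCCTCAGCTACaaatcacc
Dnahc17: acgcccttGTCACCAGCGCAACcacagata

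No heavy chain held an exact X-box within 1000 bases of its start site, or within 1000 bases of any other annotated start. Of 12620 tested genes with an annotated start, 4.60% held an exact one within 1000 bases. With 1 mismatch allowed, 9 of 10 heavy chains held a match and Dnahc5 held none, but so did 48.0% of the tested genes. A match with 1 mismatch was therefore a common property, shared by chains that fell and chains that did not pass the test. Among the 309 genes called lower that had an annotated start, 70.9% held such a match. An exact X-box within 1000 bases was held by 16.5% of them. What these shares have to do with the falls was not tested. The Dnahc7b run differs from that of Dnahc6 at its middle base, which is the complementary one, so that read on the opposite strand the 13 bases are the same. Among the tested chains, the matches nearest to the start were those of Dnahc6 and Dnahc10, which began at positions -16, -20 and -5. Dnahc11, which was too low to be tested, had a match at positions 13 to 25. What nearness has to do with the falls was not tested. The nearest matches of Dnahc9, Dnahc1 and Dnahc8 began at positions -82, -603 and -991, and Dnahc10 had further ones that began at -493 and 695. A match describes letters only, and binding was not measured here.

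**Figure D1:**
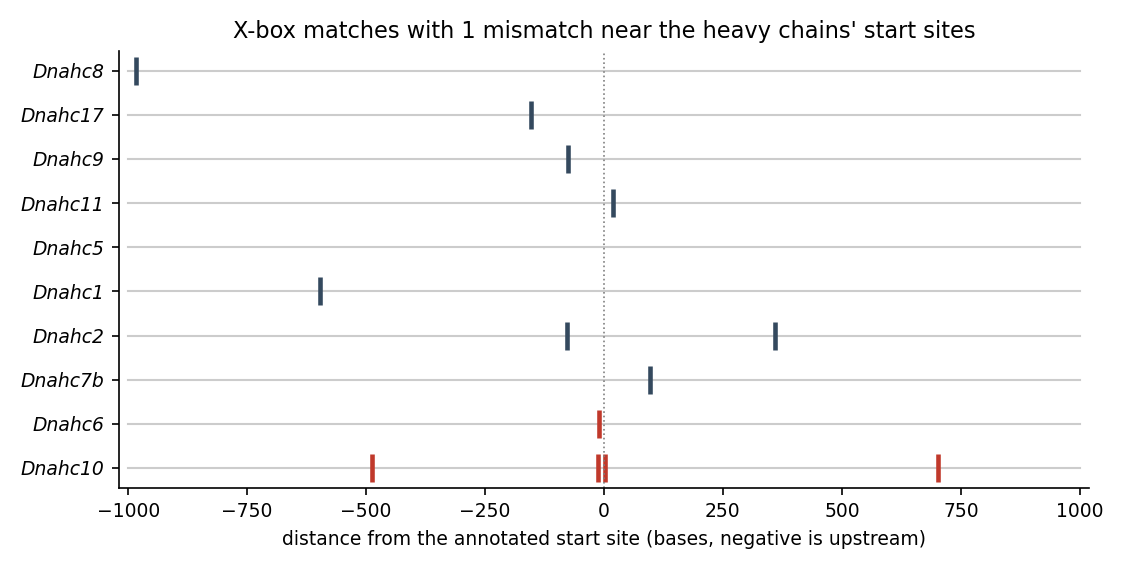
Distance of each X-box match with 1 mismatch from the annotated start site (bases, negative values upstream) for the 10 heavy chains, in red for the 2 chains that fell in the mutants and in dark blue for the others. The matches nearest to the start site are those of Dnahc6, Dnahc10 and Dnahc11, 1 run of Dnahc10 spans it, and Dnahc5 has none.

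As a check of the labels, the targeted gene Rfx2 had FPKM values (fragments per kilobase of transcript, scaled to the mapped fragments of the library, the deposited unit) of 36.7 in mutant 1, 39.8 in mutant 2, 123 in control 1 and 89.4 in control 2. Both mutants lay below both controls (log2 fold change -1.43, adjusted p = 0.00617 in limma), although the deletion removes only 2 exons and leaves the rest of the transcript. This call was lost in some alternatives, with an adjusted p of 0.0607 when no filter on low values was used and of 0.0628 without control 1. The 4 libraries had 12557 to 12942 genes at an FPKM of at least 1, and the deposited bounds of the FPKM values correspond, summed over all genes, to between 17.2 and 20.3 times 1e6 fragments. The test was limma on log2(FPKM + 1), with Benjamini-Hochberg adjustment over the 12985 genes that reached an FPKM of 1 in at least 2 samples, and a gene was called at an adjusted p under 0.05. Mutant 1 stood apart in its markers of late germ cells. The summed FPKM of 12 elongating spermatid markers was 1724 in mutant 1 and 7584 in mutant 2. It was 8673 in control 1 and 5975 in control 2. The study found no elongating spermatids in its mutants at later ages than that of these samples. At an earlier age it reports delayed spermatogenesis with fewer round spermatids in some mutants. These sums describe transcripts, and numbers of such cells were not measured in these samples. None of those 12 markers was called, and neither was any of 9 round spermatid or 8 spermatocyte markers. Genes that mark multiciliated cells and efferent ducts summed to between 1.18 and 2.05 FPKM, with Sntn and Gm6320 (Mcidas) at or near 0.

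The heavy chains ranged from 0.0378 FPKM (Dnahc11) to 172 FPKM (Dnahc8), both in control 2, and the range was narrower in the other samples. FPKM is per length of transcript and so allows levels of different genes to be compared. In both controls the order from the top was Dnahc8, Dnahc17, Dnahc1, Dnahc2, Dnahc7b, Dnahc6, Dnahc10, Dnahc9 and then Dnahc11 and Dnahc5, whose order differed between the 2. Neighbours in this order did not overlap between the 2 controls, except Dnahc11 and Dnahc5. In the mutants the first 6 places were the same, but Dnahc10 at 0.533 and 0.678 FPKM overlapped with Dnahc9 and Dnahc11. Dnahc10 thus lay among the outer-arm chains of airway cilia in the mutants and more than 1 order of magnitude above them in the controls. These are long genes, with 66 to 93 exons and transcripts of 12318 to 15630 bases in the annotation used here.

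**Figure D2:**
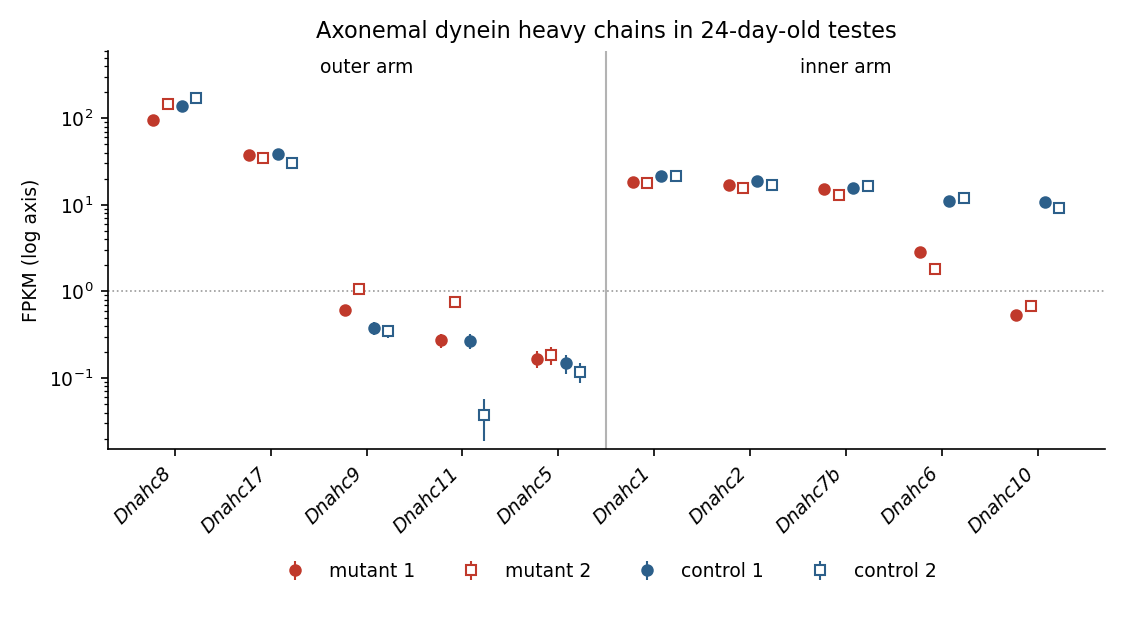
FPKM of the 10 heavy chains in each of the 4 samples on a log axis, outer-arm chains on the left and inner-arm chains on the right; bars are the bounds deposited for each value, mostly smaller than the symbols, and the dotted line marks 1 FPKM. Dnahc6 and Dnahc10 are well below the controls in both mutants, whereas 3 outer-arm chains lie near or under 1 FPKM in all samples.

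Among the inner-arm chains, Dnahc10 and Dnahc6 were lower in the mutants, to 6.12% and 20% of the control mean, and Dnahc1, Dnahc2 and Dnahc7b did not pass the test. No heavy chain was called higher. Of the 7 heavy chains that could be tested, 2 were called lower, against 2.52% of all genes tested, and 0 were called higher, against 0.308%. Both called chains belong to the inner arms, where all 5 members were tested. Among these 7, the same 2 chains and no others had an unadjusted p under 0.05 in limma.

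Dnahc10, at chr5:125205455-125314678 on the plus strand, encodes one of the motors of the two-headed inner arm. Its FPKM was 0.533 in mutant 1, 0.678 in mutant 2, 10.7 in control 1 and 9.14 in control 2. Both mutants were low, both controls were high, and the groups were far apart relative to the spread within each. The mean was 0.605 ± 0.102 (SD, n = 2) in the mutants and 9.90 ± 1.07 (SD, n = 2) in the controls, a 16.3-fold difference. On the log2(FPKM + 1) scale the change was -2.76 (SE 0.21, 95% interval -3.26 to -2.26, adjusted p = 0.000318 in limma), which understates the ratio of FPKM because the mutant values are below 1. The log2 ratio of the mean FPKM was -4.03. Dnahc10 passed the filter on low values only through its controls. The deposited bounds correspond to 222 and 241 fragments in the mutants and 4247 and 3864 in the controls.

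Dnahc6, at chr6:72967600-73171645 on the minus strand, encodes a single-headed inner-arm motor. Its FPKM was 2.83 in mutant 1, 1.81 in mutant 2, 11.2 in control 1 and 12.1 in control 2. The mutants were again below both controls, and the 2 controls were close to each other. The mean was 2.32 ± 0.722 (SD, n = 2) against 11.6 ± 0.632 (SD, n = 2), a 5.0-fold difference. The log2 change was -1.94 (SE 0.24, 95% interval -2.49 to -1.40, adjusted p = 0.00341 in limma). With no filter on low values, which tests 19502 genes, the change was as large but the adjusted p was 0.0501. Fragments corresponding to the bounds numbered 1062 and 580 in the mutants and 4007 and 4590 in the controls.

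The falls of both chains were present in each mutant sample. Against the control mean on the log2(FPKM + 1) scale, Dnahc10 differed by -2.83 in mutant 1 and -2.70 in mutant 2. Dnahc6 differed by -1.72 in mutant 1 and -2.16 in mutant 2. In mutant 2 the median difference of the elongating spermatid markers was 0.27 and that of the round spermatid markers 0.29, whereas in mutant 1 they were -1.26 and -0.26. The same medians were 0.21 and 0.10 in control 1 and -0.21 and -0.10 in control 2. Without mutant 1, both were still called lower. In whole testes, fewer cells of a type and less RNA per cell cannot be told apart.

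Dnahc2, the partner of Dnahc10 in dynein f, lies at chr11:69234311-69362612 on the minus strand. Its FPKM was 17.1 in mutant 1, 15.5 in mutant 2, 18.9 in control 1 and 16.9 in control 2, and the groups overlapped. The log2 change was -0.13 (95% interval -0.54 to 0.28), an interval that lies wholly above that of Dnahc10. The FPKM ratio of Dnahc2 to Dnahc10 was 1.77 and 1.85 in the controls and 32.0 and 22.8 in the mutants. The pair thus went from similar transcript levels in the controls to levels more than 1 order of magnitude apart in the mutants.

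Dnahc1, a single-headed inner-arm motor at chr14:32073561-32137082 on the minus strand, had an FPKM of 18.2 in mutant 1, 17.8 in mutant 2, 21.5 in control 1 and 21.2 in control 2. Both mutants were a little below both controls, but the log2 change of -0.24 did not pass the test (95% interval -0.62 to 0.15). Dnahc7b, at chr1:46123583-46430395 on the plus strand, had an FPKM of 15.2 in mutant 1, 13.1 in mutant 2, 15.6 in control 1 and 16.4 in control 2. It too was slightly lower in both mutants without passing (log2 change -0.17, 95% interval -0.59 to 0.25). Of the 31-base words in the Dnahc7b exons, 64.0% also occur elsewhere on the same chromosome, at chr1:46482437-46864291 or chr1:53453840-53719187, so its value may include or lack reads of near-identical copies and is uncertain. For the other inner-arm chains no such word was found elsewhere. With Dnahc6 and Dnahc10, 4 of the 7 tested heavy chains had both mutants below both controls, an arrangement that 15.2% of all genes tested showed.

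Among the outer-arm chains, no member was called in either direction, but only 2 of 5 passed the filter on low values. Dnahc8, the gamma-type chain of sperm, was the most abundant heavy chain, at chr17:30761299-31012209 on the plus strand. Its FPKM was 95.4 in mutant 1, 147 in mutant 2, 138 in control 1 and 172 in control 2. Mutant 1 was the lowest sample, and mutant 2 lay between the controls. The log2 change was -0.38 (SE 0.24, 95% interval -0.93 to 0.18, adjusted p = 0.989 in limma). The sample low in Dnahc8 was also the one low in elongating spermatid markers, and what these have to do with each other was not tested. Without mutant 1 the change was -0.06, and without mutant 2 it was -0.69.

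Dnahc17, the beta-type chain of sperm at chr11:117883037-117990533 on the minus strand, had an FPKM of 37.8 in mutant 1, 34.8 in mutant 2, 39.0 in control 1 and 30.0 in control 2. Both mutants lay between the 2 controls. The log2 change was 0.08 (95% interval -0.34 to 0.51), so that a fall of the size of Dnahc6 or Dnahc10 lies outside the interval. The interval of Dnahc8 too lay above those of both.

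Dnahc9, Dnahc11 and Dnahc5 were low in every sample and are given as values. Dnahc9, at chr11:65644784-65982053 on the minus strand, had an FPKM of 0.612 in mutant 1, 1.07 in mutant 2, 0.379 in control 1 and 0.345 in control 2. Dnahc11, at chr12:119116455-119437516 on the minus strand, had an FPKM of 0.276, 0.746, 0.270 and 0.0378 in the same order. Dnahc5, at chr15:28133507-28401800 on the plus strand, had an FPKM of 0.168, 0.184, 0.149 and 0.119. In all 3 both mutants lay above both controls, an arrangement found in 17.1% of the 6517 genes that were under the filter and had an FPKM above 0. For Dnahc11 and Dnahc5, however, the deposited bounds of mutant 1 and control 1 overlapped. The bounds correspond to between 16 and 372 fragments a sample for these 3 genes. Of the 31-base words in the exons, 1.46% for Dnahc11 and 0.171% for Dnahc9 also occur elsewhere in the genome. When the filter was left out, the log2 change was 0.42 for Dnahc9, 0.38 for Dnahc11 and 0.05 for Dnahc5, and none passed (adjusted p = 0.465, 0.751 and 0.983 in limma), although the unadjusted p of Dnahc9 was 0.0320. Their part of the outer-arm sum was small, since Dnahc8 and Dnahc17 made up between 98.9% and 99.8% of it.

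**Figure D3:**
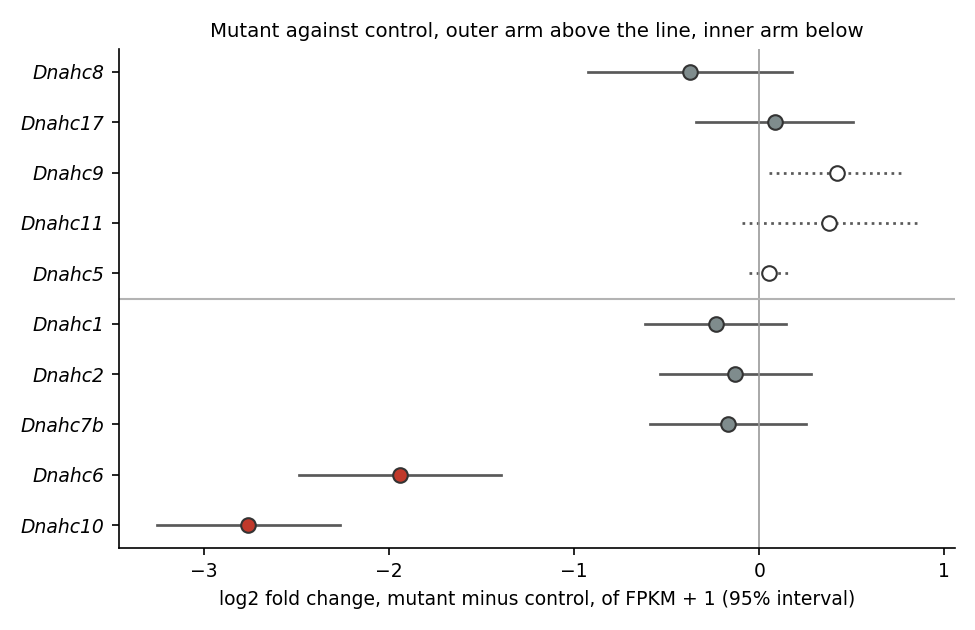
Log2 fold change of FPKM + 1, mutant minus control, with 95% interval, for each heavy chain; red points were called lower, grey points were tested and not called, and open points with dotted intervals are the 3 chains under the filter, taken from the fit without it. The intervals of Dnahc6 and Dnahc10 end at -1.40 and -2.26, while those of the other 5 tested chains include 0.

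Set side by side, the median log2 change of the tested chains was -0.15 in the outer arm (2 chains) and -0.24 in the inner arm (5 chains), beside 0.03 over all genes tested. The outer-arm median rested on single libraries, at -0.02 without mutant 1 and -0.27 without mutant 2, where the inner-arm median was -0.27 and -0.22. Of the inner-arm chains 2 of 5 were called lower, and of the tested outer-arm chains 0 of 2. With chains of the low group added, the outer-arm median was 0.08. No test of the arms as groups was made, since so few chains could be measured in the outer arm. The inner-arm sum was 53.9 FPKM in mutant 1, 48.8 in mutant 2, 77.8 in control 1 and 75.8 in control 2. Both mutants were below both controls. This sum lacks the inner-arm chains Dnah3, Dnah7a, Dnah7c, Dnah12 and Dnah14, which had no value here. The share of Dnahc6 and Dnahc10 and the ratio of the arms, given below, lack them too. The outer-arm sum was 134 in mutant 1, 184 in mutant 2, 178 in control 1 and 202 in control 2, and the groups overlapped. With 2 samples against 2, an exact two-sided permutation test of such a sum cannot give a p below 0.333.

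Most of the lower inner-arm sum came from the 2 called chains. Dnahc6 and Dnahc10 together made up 28.0% of the inner-arm sum in each control, and 6.25% and 5.10% in the mutants. Without them, the inner-arm sum was 50.5 in mutant 1, 46.3 in mutant 2, 56.0 in control 1 and 54.6 in control 2, still lower in both mutants but by much less. The ratio of outer-arm to inner-arm FPKM was 2.49 in mutant 1, 3.77 in mutant 2, 2.28 in control 1 and 2.67 in control 2, so that the groups overlapped.

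**Figure D4:**
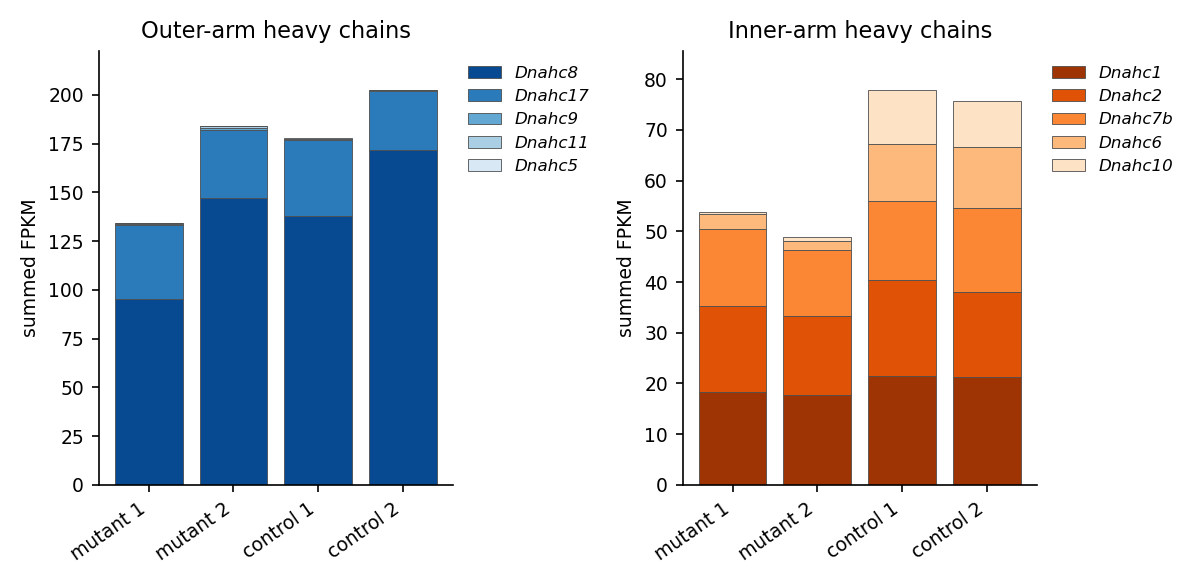
Summed FPKM of the outer-arm (left) and inner-arm (right) heavy chains in each sample, stacked by chain. Dnahc6 and Dnahc10, the upper layers of the inner-arm bars, shrink from 28.0% of the sum in the controls to 6.25% and 5.10% in the mutants, and the outer-arm bars overlap between genotypes.

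The other genes of the dynein arms gave a setting for the heavy chains. Of 10 intermediate and light chains, 4 were called lower, against 2.52% of all genes tested, and none higher, against 0.308% (median log2 change -0.55). Dnaic2, an intermediate chain of the outer arm, had an FPKM of 0.286 in mutant 1, 0.160 in mutant 2, 43.1 in control 1 and 28.4 in control 2 (log2 change -4.88, adjusted p = 4.3e-05 in limma). Like Dnahc10, Dnaic2 passed the filter on low values only through its controls, and the log2(FPKM + 1) scale understates its ratio. Dnaic1, the other intermediate chain of the outer arm, was at 72.1 in mutant 1, 85.0 in mutant 2, 51.4 in control 1 and 44.1 in control 2, and was not called (log2 change 0.71, adjusted p = 0.0998 in limma). Of these outer-arm intermediate chains only Dnaic2 was called, and the heavy chains Dnahc8 and Dnahc17 did not pass the test. The other 3 were Dnali1, an inner-arm light intermediate chain (-2.04, adjusted p = 0.00159), Dynlrb2, a roadblock-type light chain (-1.58, adjusted p = 0.00371), and Wdr78, an inner-arm intermediate chain (-1.13, adjusted p = 0.0110), all in limma.

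Of the docking and attachment genes, 8 of 9 listed were tested and 4 were called lower, against the same 2.52%, and none higher (median -0.72). Ccdc40 (-2.90, adjusted p = 0.000143) and Ccdc39 (-1.19, adjusted p = 0.00500), the ruler along which inner arms are placed, fell together in limma. Armc4 (-2.58, adjusted p = 0.00222) and Ttc25 (-1.19, adjusted p = 0.00717), which serve docking of the outer arm, also fell. Of the preassembly factors, which fold and assemble arms in the cytoplasm, 12 of 13 listed were tested. Only 1 was called lower, again beside 2.52% of all genes tested. It was 4930521A18Rik (Pih1d3), with a log2 change of -1.23 and an adjusted p of 0.0225 in limma. The median over the preassembly factors was -0.38, so the group leaned lower beyond that call, and none was called higher. Against the control mean on the log2(FPKM + 1) scale, the median difference of the intermediate and light chains was -0.50 in mutant 1 and -0.64 in mutant 2. That of the preassembly factors was -0.42 and -0.44 in the same order. The study itself picked Dnali1, Dynlrb2, Armc4, Ccdc39, Ccdc40 and Dyx1c1 on these samples, so their direction here is not independent evidence. The study also measured these genes by real-time PCR and reports most of its chosen cilia genes as significantly lower. Dyx1c1, a preassembly factor, had an FPKM of 11.6 in mutant 1, 10.7 in mutant 2, 21.6 in control 1 and 20.1 in control 2. It was not called (log2 change -0.84, adjusted p = 0.0523 in limma). The study chose its genes by the p-values of Cuffdiff on pooled replicates, which is a different test and threshold. The heavy chains of cytoplasmic dynein and of retrograde intraflagellar transport, Dync1h1 and Dync2h1, were tested and neither was called, with a median of -0.12.

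**Figure D5:**
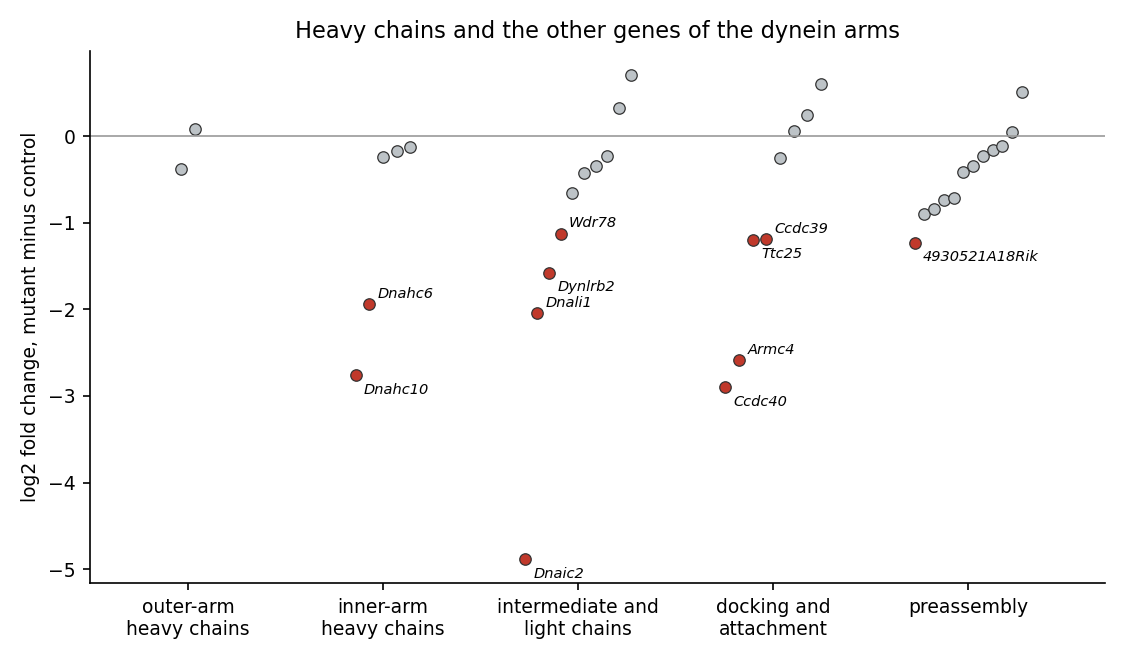
Log2 fold change, mutant minus control, of each tested gene of the dynein arms by group, with called genes in red and named. The tested outer-arm heavy chains lie at -0.38 and 0.08, and the inner-arm chains that were not called at -0.24, -0.17 and -0.13. The called inner-arm heavy chains lie at -1.94 and -2.76, and the lowest point is Dnaic2 at -4.88.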

How the data were processed

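Testis RNA was sequenced by the study, and TopHat2 (version 2.0.6, from the submitters' processing notes) aligned reads to mm9. Cufflinks made the deposited FPKM values per gene and sample, with confidence bounds, and the authors pooled replicates for their own Cuffdiff comparison, which is not used here. Rows sharing a symbol were summed. FPKM were tested with limma 3.58.1 in R 4.3.3 on log2(FPKM + 1) with an intensity trend, for genes that reached 1 FPKM in 2 or more samples. The script was tested on simulated data. The files hold no read totals, and those in the study's text are not used here. The fragment numbers were worked out from the bounds, are approximate, and cover counting and assignment error within a library only. Alternatives were other pseudocounts, filters, scalings and variance models, voom on those fragments, a replicate block and leaving out each sample. Start sites, exons and sequences came from the NCBIM37 genome and its GENCODE annotation. The RefSeq gene table lists 15 axonemal heavy chains, of which 10 had a row. Dnah3, Dnah7a, Dnah7c, Dnah12 and Dnah14, all of the inner arms, were not analysed here. Named genes were all members, Rfx2, and in each list of arm genes those with an adjusted p under 0.05, at most the 5 with the largest changes. Dnaic1 and Dyx1c1 were named after their values were seen. The members and lists were chosen with earlier results of these data known. Limits of 95% intervals are those of limma.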

Additional observations from a re-analysis of the deposited data

How the results depend on the processing

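The falls of Dnahc10 and Dnahc6 kept their direction in all 16 alternatives. The log2 changes ran from -4.02 to -2.62 for Dnahc10 and from -2.35 to -1.72 for Dnahc6. Several alternatives change only the variance model or the genes tested and leave the estimate as it was. With both mutants below both controls, leaving out 1 sample could not reverse the direction. Dnahc10 stayed under the threshold (adjusted p at most 0.0192), whereas Dnahc6 missed it with no filter (0.0501), where 1 heavy chain in place of 2 was called lower. The outer-arm median became 0.0832 with no filter or a filter at 0.1 FPKM, because 3 chains then entered it, and ranged from -0.272 to -0.0198 when 1 sample was left out. The exact X-box count of 0 became 9 with 1 mismatch. Over all genes, 327 were lower and 40 higher. These counts were 199 and 17 with no filter and 216 and 16 with median-ratio scaling. A robust variance model gave 67 higher. Leaving out 1 sample gave 167 (without control 1) to 948 (without mutant 2) lower and 13 (without control 2) to 162 (without mutant 1) higher; the lone sample was assumed to vary like the other group. With the replicate number as a block, 525 were lower and 70 higher, but same-numbered samples did not deviate together (r = -0.154). The crossed pairing, added after seeing the data, gave 266 lower and 28 higher. Rfx2 lost its call with median-ratio scaling (adjusted p = 0.0730) and voom (0.0663), as well as in the alternatives named above. The cause of these changes was not tested. With 2 samples a group, small changes could not be resolved. Neither could changes of the 3 chains near or under 1 FPKM, whose fragment numbers were also low.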

Other observations

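The genes next to the lowered heavy chains did not pass the test. Atp6v0a2, a proton pump subunit that ends 631 bases before Dnahc10 on the same strand, had an FPKM of 9.20 in mutant 1, 8.86 in mutant 2, 6.82 in control 1 and 7.67 in control 2. Ccdc92, which lies 110 bases beyond the end of Dnahc10 on the opposite strand, had an FPKM of 274, 264, 254 and 178 in the same order. Suclg1, a mitochondrial succinyl-CoA ligase subunit upstream of Dnahc6, had an FPKM of 127, 124, 126 and 126, and Tmsb10, downstream of it, had 626, 712, 736 and 551. The log2 changes of these 4 neighbours were 0.28, 0.34, -0.01 and 0.07. They were chosen by position after the values of the heavy chains were known.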
